A study of Mus musculus with 24 samples.

Results

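Mitochondrial ribosomal protein genes, found as all rows of the normalized count table whose mouse symbol starts with Mrpl or Mrps followed by a digit, were described across 3 subsets of splenic regulatory T (Treg) cells. The rule found 83 rows of 17464 genes listed, of which 78 are protein-coding genes, 49 of the large subunit and 29 of the small subunit by symbol, and 5 are processed pseudogenes. All 83 passed the filter on low values, a normalized count of at least 10 in at least 4 libraries, which left 16630 genes for testing. The study sorted by flow cytometry resting Treg cells (rTreg, CD62L+ CD44-), activated Treg cells (aTreg, CD62L- CD44+) and KLRG1+ Treg cells (kTreg) from the spleens of wild-type C57BL/6JRccHsd mice with no treatment, 4 young mice of 2 months and 4 old mice of 26 months. The 3 subsets were sorted from these 8 mice and each library carries a sample number from 1 to 4, but the labels do not state that a number marks 1 mouse. The 24 bulk RNA-seq libraries form 6 groups of 4. A normalized count is a number of reads divided by 1 scaling factor per library, and between 15045747 and 29521942 reads per library lay on listed genes.

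Mitochondria translate the few proteins encoded by their own genome, which are core subunits of the respiratory chain and of the ATP synthase, on a ribosome of their own. All proteins of this mitoribosome are encoded in the nucleus, made in the cytosol and imported, and they join mitochondrial ribosomal RNA to form a small subunit, which reads the messenger RNA, and a large subunit, which forms the peptide bond. Some descend from proteins of the bacterial ribosome and others were added in the mitochondrial lineage. Of the 78 coding genes, 45 encode homologues of bacterial ribosomal proteins and 32 encode mitochondrion-specific proteins. The remaining gene, Mrps36, carries a ribosomal symbol but encodes a component of a mitochondrial dehydrogenase complex. Mrps30 and Mrps18a carry small subunit symbols, while their proteins sit in the large subunit of the mammalian ribosome.

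The results turn most on Mrps5, Mrpl23 and Mrpl45, the 3 coding genes with the smallest p for kTreg against aTreg cells, and the 100 bases before each start are shown because these genes moved together. They were read 5′ to 3′ on the strand of the gene from GRCm39, with the canonical start of GENCODE M39, and no annotated exon lies in them. Capitals mark a match to a motif searched for. The stretch of Mrps5 is chr2:127429035-127429134 and that of Mrpl23 is chr7:142086649-142086748, inside the annotated bounds of the gene. That of Mrpl45 is chr11:97206442-97206541. All 3 genes are on the plus strand.
Mrps5: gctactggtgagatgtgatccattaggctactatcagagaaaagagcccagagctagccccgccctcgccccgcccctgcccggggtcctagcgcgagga
Mrpl23: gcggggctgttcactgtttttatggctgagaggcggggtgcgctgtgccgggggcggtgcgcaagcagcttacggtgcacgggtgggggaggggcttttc
Mrpl45: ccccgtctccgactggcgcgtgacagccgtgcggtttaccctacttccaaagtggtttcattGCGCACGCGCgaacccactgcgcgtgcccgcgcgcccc
Motifs were searched on both strands from 250 bases before to 50 bases after each start, in 78 windows of the coding genes and 21770 windows of all protein-coding genes. The palindromic consensus of NRF-1, nuclear respiratory factor 1, was found in 15.4% of the members' windows and in 5.81% of all windows. The CCGGAAG motif of ETS factors was found in 30.8% of the members' windows and in 10.3% of all windows, and AAGATGGCG, which YY1 binds, in 5.13% and 1.34%. The shares for the large and the small subunit genes were 16.3% and 13.8% for the NRF-1 motif and 30.6% and 31.0% for the ETS motif. CACGTG was found in 6.41% of the members' windows against 7.81% of all, and TATAAA in 10.3% against 13.2%. Mrpl45 held the NRF-1 motif 3 times, while neither Mrps5 nor Mrpl23 held any of these motifs in its window.

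Levels were compared between genes only as the normalized count per kilobase of the canonical transcript. Over all 24 libraries, the level per kilobase of the coding genes spanned 27.3-fold, from 96.7 for Mrps25, a mitochondrion-specific protein of the small subunit, to 2636 for Mrpl33, a bacterial homologue of the large subunit. Mrps25 shares 47.9% of its exonic bases with Nr2c2 on the opposite strand. The cDNA kit does not mark strand, so the level of Mrps25 and the span are uncertain. After Mrpl33 came Mrpl42 at 2397, Mrpl23 at 1759, Mrps21 at 1756 and Mrpl4 at 1434 per kilobase. The lowest levels after Mrps25 were those of Mrpl47 at 106, Mrpl53 at 118, Mrps31 at 151 and Mrpl19 at 166 per kilobase. The subunits overlapped along this order, with a median level per kilobase of 603 for the large and 504 for the small subunit. Between libraries, Mrpl4 varied least, with a coefficient of variation of 12.9% over 24 libraries, and Mrps28 most, with 39.3%. The median level per kilobase of bacterial homologues was 687 and that of mitochondrion-specific proteins 470. Among the groups, the median level per kilobase of the 78 genes was lowest in kTreg cells, at 469 in young and 461 in old mice, against 541 and 588 in aTreg cells and 635 and 565 in rTreg cells.

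**Figure D1:**
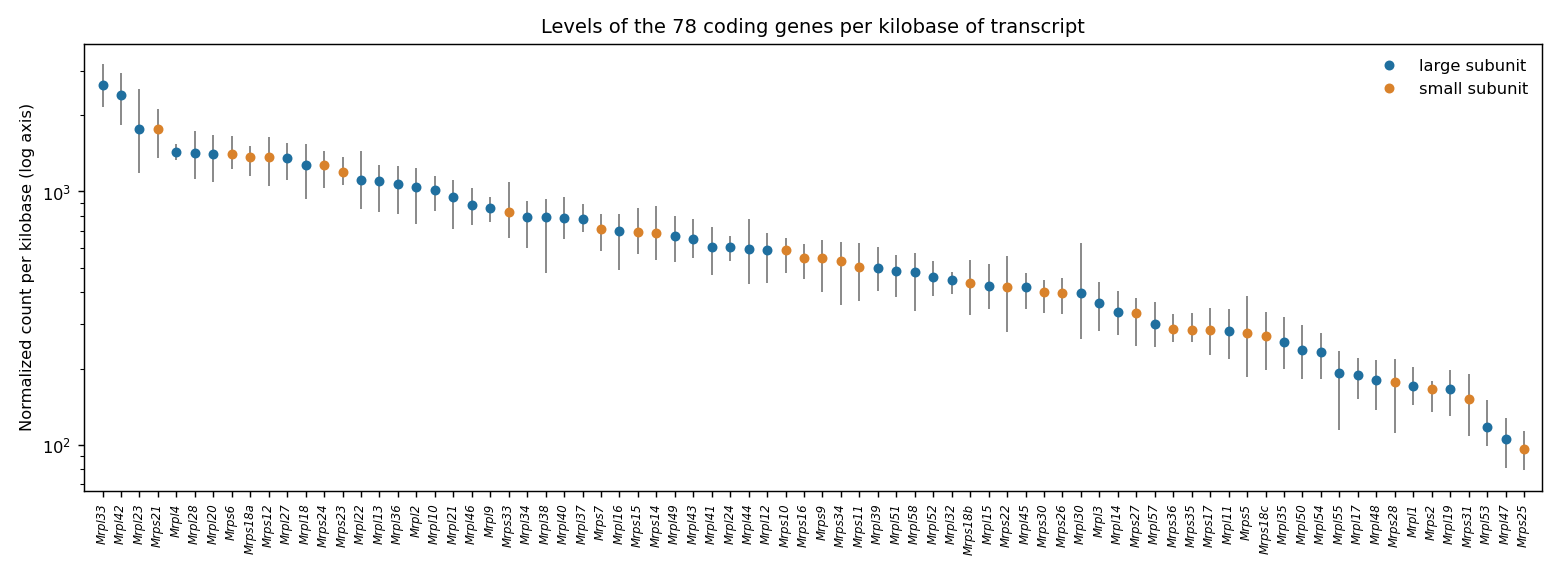
The mean normalized count per kilobase of transcript over 24 libraries is plotted on a log axis for each of the 78 coding genes, ordered by level, with a grey line from the lowest to the highest of the 6 group means. Large (blue) and small (orange) subunit genes are mixed along the order, which runs from 2636 for Mrpl33 to 96.7 for Mrps25.

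The libraries differed in the members as a whole. The mean log2 deviation, that is, the mean over the genes of log2(normalized count + 1) minus the mean of each gene over 24 libraries, spanned -0.42 to 0.50 for the large subunit and -0.40 to 0.50 for the small subunit. The lowest library on both was old kTreg 2, and all 8 kTreg libraries were below 0 on both subunits. The highest were old aTreg 2 at 0.50 and 0.49, old rTreg 3 at 0.48 and 0.44, and young rTreg 3 at 0.47 and 0.50 for the large and the small subunit. The other 3 old rTreg libraries lay between -0.16 and -0.07 for the large subunit. The coding genes together took between 0.331% and 0.594% of the total normalized count, and the ratio of the large to the small subunit sum stayed between 1.66 and 2.05.

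**Figure D2:**
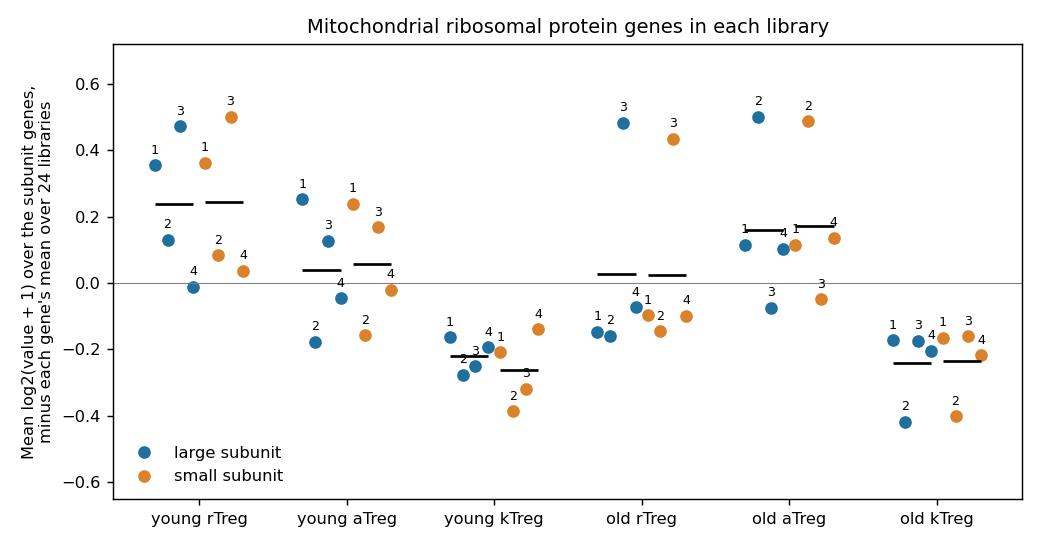
Each point is the mean log2 deviation of the large (blue) or small (orange) subunit genes in 1 library, marked with its sample number, and bars are means of the 4 libraries of a group. The kTreg libraries all sit below 0, and old rTreg 3 and old aTreg 2 sit apart from the other libraries of their groups on both subunits.

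Several of these libraries also stood apart in genes that are not members. Klrg1, the gene of the sorted receptor, had a normalized count of 16559 to 41561 in kTreg libraries and of at most 357 in the others. Foxp3, the factor that defines Treg cells, had its lowest normalized count in old aTreg 2, at 5079, and the next lowest in old rTreg 3, at 13151. It reached 37793 in the other 22 libraries. Of the other Treg markers, Ctla4 (3128), Ikzf2 (2227) and Il2ra (2901) were also lowest in old aTreg 2, while Cd4 and Cd3e were not. In old rTreg 3, Ctla4 (7909) and Il2ra (5027) lay within the range of the other old rTreg libraries. Ikzf2 (5812) lay above that range there, and Cd4 (9973) and Cd3e (12021) below it. Young kTreg 4 had 4913 listed genes at 0, against 419 to 2756 in all other libraries, and the lowest ratio of the large to the small subunit sum. Summed macrophage or monocyte markers, 7 of 7 listed, reached 10167 to 26422 in old rTreg libraries, 243 to 376 in old aTreg and 2100 to 3337 in old kTreg libraries, and spanned 0 to 27704 in young kTreg libraries. Basophil or mast cell markers, 4 of 4 listed, reached 2524 to 6119 in old rTreg libraries and at most 284 in any other. The share of cytosolic ribosomal protein genes, which build the ribosome of the cytosol, also varied, from 0.950% to 2.71% of the total normalized count. In bulk samples a lower level cannot be told apart from fewer cells of one type or less RNA per cell. The part these differences play in the results was not tested.

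For kTreg against aTreg cells, which asks how KLRG1+ cells differ from other activated Treg cells, mitochondrial ribosomal protein genes were lower in both subunits. The median log2 fold change of the 78 coding genes was -0.33, against -0.08 over all genes tested, and 76 of 78 were below 0. In limma's test over the whole table, 21 fell and 0 rose at a Benjamini-Hochberg adjusted p below 0.05, while 6.00% of all genes tested fell and 6.06% rose. At an unadjusted p below 0.05, 0 were higher, and edgeR and DESeq2 on the recovered reads passed 23 and 26, of which 0 were higher. The shares of all genes tested beside these counts are not given. The 21 were 12 of 49 large and 9 of 29 small subunit genes. The subunits had the same median log2 fold change, -0.33, and medians of -0.30 and -0.34 were found for bacterial homologues and mitochondrion-specific proteins, of which 11 of 45 and 10 of 32 fell.

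The fall was largest among passing genes in 5 that also passed the 1.5-fold threshold of the study, namely Mrps5, Mrpl23, Mrpl38, Mrpl44 and Mrps28, while 3.26% of all genes tested fell past it. Mrps5, Mrpl23, Mrpl38 and Mrps28 belong to genes the study selected on these samples, so their direction is not independent evidence. Mrps5 (chr2:127429135-127448789), the homologue of a bacterial protein at the messenger RNA entry of the small subunit, had normalized counts of 944, 821, 873 and 675 in young and 1093, 916, 1092 and 952 in old kTreg cells of samples 1 to 4. The aTreg values of Mrps5 were 1346, 1236, 1455 and 1130 in young and 1648, 2150, 1589 and 1537 in old mice. All kTreg values of Mrps5 lay below all aTreg values. Its log2 fold change was -0.70 ± 0.10 (SE, adjusted p = 6.5e-05, limma), lower in 8 of 8 pairs of libraries with the same number.

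Mrpl23 (chr7:142086423-142094486), which lines the exit of the tunnel for new chains in the large subunit, had normalized counts of 758, 901, 665 and 940 in young and 852, 720, 843 and 890 in old kTreg cells. Its aTreg values were 1633, 1061, 1320 and 1316 in young and 1290, 1925, 1162 and 1248 in old mice. The kTreg and aTreg values of Mrpl23 did not overlap, and the highest aTreg value was that of old aTreg 2. Its log2 fold change was -0.72 ± 0.14 (SE, adjusted p = 0.0015, limma), lower in 8 of 8 pairs of libraries with the same number.

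Mrpl38 (chr11:116022641-116029700), a mitochondrion-specific protein of the central protuberance of the large subunit, had normalized counts of 751, 815, 810 and 315 in young and 1047, 915, 1160 and 1146 in old kTreg cells. In aTreg cells its values were 1289, 1211, 1354 and 1252 in young and 1279, 1322, 1301 and 1382 in old mice. The ranges did not overlap, and the value of 315 in young kTreg 4 lay far below the rest. The log2 fold change of Mrpl38 was -0.67 ± 0.15 (SE, adjusted p = 0.0045, limma).

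Mrpl44 (chr1:79753735-79759168), a mitochondrion-specific protein with a fold like that of ribonuclease III, had a log2 fold change of -0.61 ± 0.14 (SE, adjusted p = 0.0071, limma), with young kTreg 4 again lowest at a normalized count of 374. Mrps28 (chr3:8865093-8988978), a small subunit protein, had kTreg values from 278 to 518 and aTreg values from 437 to 1005. These ranges overlapped, and kTreg was lower in 7 of 8 pairs. The log2 fold change of Mrps28 was -0.70 ± 0.20 (SE, adjusted p = 0.027, limma), a call lost in several alternatives, which gave adjusted p from 0.0070 to 0.15 (limma, edgeR and DESeq2). Values of all kTreg libraries lay below those of all aTreg libraries for 6 coding genes, Mrpl3, Mrpl23, Mrpl37, Mrpl38, Mrpl45 and Mrps5, and for 1.17% of all genes tested.

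**Figure D3:**
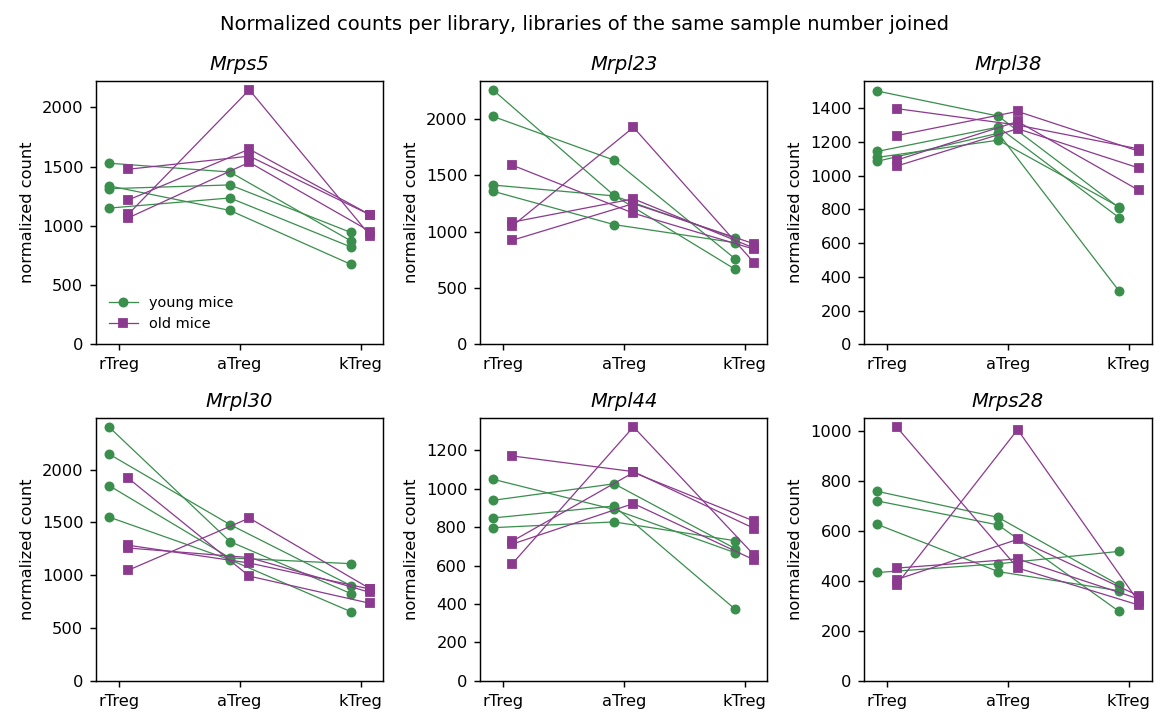
Normalized counts per library of Mrps5, Mrpl23, Mrpl38, Mrpl30, Mrpl44 and Mrps28 are plotted by subset, with a line joining the libraries of the same sample number in young (green circles) and old (purple squares) mice. The kTreg values of Mrps5, Mrpl23 and Mrpl38 lie below all aTreg values, while the ranges of Mrps28 overlap.

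Within the genes with the smallest p were also Mrpl45, Mrpl19 and Mrps18b. Mrpl45, which lies near the tunnel exit and helps to hold the ribosome at the inner membrane, had a log2 fold change of -0.42 ± 0.09 (SE, adjusted p = 0.0033, limma). Mrpl19, a bacterial homologue of the large subunit, fell by 0.52 on the log2 scale, and Mrps18b, one of several S18-related proteins, fell by 0.57. Mrpl19 shares 35.6% of its exonic bases with Gcfc2 on the opposite strand and Mrps18b 29.3% with Gm16279, and the cDNA kit does not mark strand, so their reads cannot be told apart there. The 2 coding genes above 0, Mrpl32 at 0.18 and Mrpl4 at 0.06 on the log2 scale, did not pass.

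The other genes that fell were Mrps22, Mrpl30, Mrpl3, Mrps34, Mrps27, Mrpl49, Mrpl2, Mrpl22, Mrps17, Mrps15, Mrpl39, Mrps7 and Mrpl37, with log2 fold changes from -0.55 for Mrps22 to -0.27 for Mrpl37. Mrps31, a mitochondrion-specific protein of the small subunit, had the lowest log2 fold change of all coding genes, -1.09 ± 0.57 (SE, adjusted p = 0.24, limma), and did not pass. Its normalized count was 6.41 in young kTreg 4 and 369 to 505 in the other kTreg libraries, against 441 to 604 in aTreg cells.

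Between kTreg and aTreg libraries of the same number, the median log2 difference of the 78 genes ran from -0.93 in old 2 to -0.01 in young 4, and it was below that of all genes tested in 7 of 8 pairs. The exception was young 4, where all genes tested had a median of -0.22, with 9430 of 16630 below 0, and 39 of the 78 were lower. In old 2 all 78 were lower, beside a median of 0.08 over all genes tested. The large and the small subunit medians had the same sign in 7 of 8 pairs, and in young 4 they were -0.07 and 0.07. Within an age, the median log2 fold change was -0.23 in young mice, where 8 of the 78 fell while 4.27% of all genes tested did. The lowest of these was Mrpl38 at -1.02, and the others, Mrpl23, Mrps27, Mrps5, Mrpl3, Mrps34, Mrpl19 and Mrpl45, lay between -0.70 and -0.45. In old mice the median was -0.42 and 2 genes fell, Mrps5 by 0.76 and Mrpl23 by 0.74 on the log2 scale, against 1.03% of all genes tested.

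Transcript length moved with the same comparison. Among other protein-coding genes with a mean at least that of the lowest member, cytosolic ribosomal protein genes left out, the median log2 fold change was -0.18 for the 364 with transcripts up to 1 kb, -0.13 for 1664 of 1 to 2 kb, -0.02 for 3881 of 2 to 4 kb and 0.03 for 3896 over 4 kb. The members had medians of -0.30, -0.28, -0.42 and -0.29 in these classes, with 12, 32, 22 and 12 genes. The trend of the other genes differed by age, with class medians of -0.0036, -0.06, -0.03 and -0.06 in young and -0.35, -0.18, 0.02 and 0.17 in old mice. The members had -0.19, -0.24, -0.27 and -0.24 in young and -0.44, -0.36, -0.47 and -0.32 in old mice. After the trend on length was removed from each library, an alternative added after seeing the data, 13 coding genes fell and the median was -0.25. Cytosolic ribosomal protein genes had a median of -0.44, and 35 of 84 fell.

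**Figure D4:**
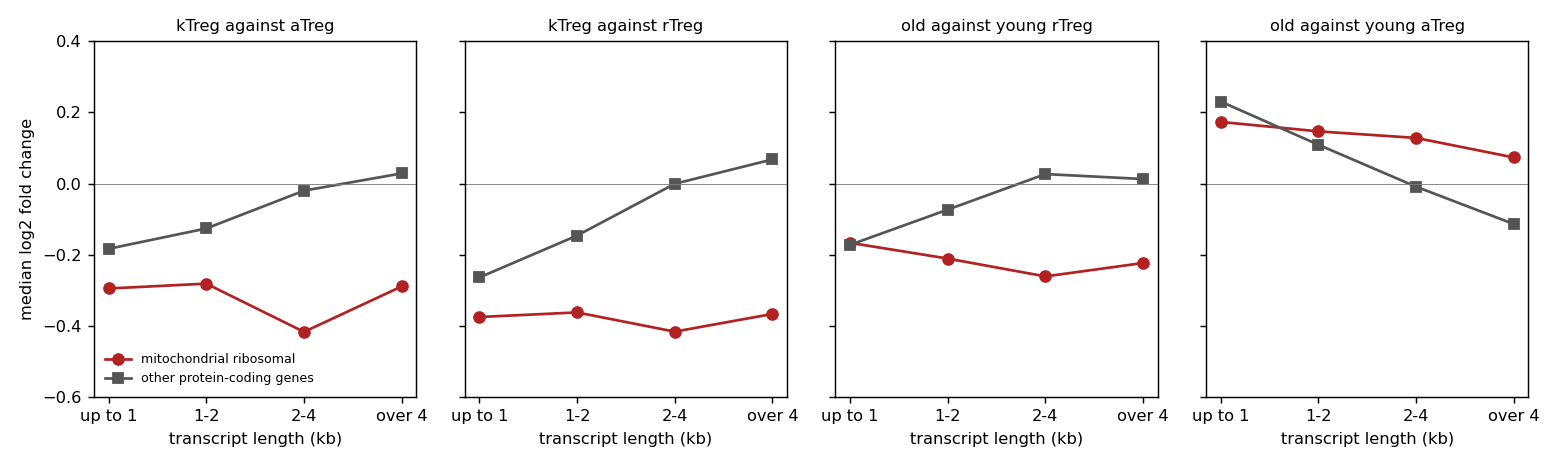
Median log2 fold changes are plotted by transcript length class for the 78 mitochondrial ribosomal protein genes (red) and for other protein-coding genes (grey) in 4 comparisons. The grey genes have a mean at least that of the lowest member, without an upper bound, and leave out cytosolic ribosomal protein genes. In kTreg against aTreg cells the grey medians run from -0.18 in the shortest class to 0.03 in the longest, and the red medians lie between -0.42 and -0.28.

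For kTreg against rTreg cells, the median log2 fold change of the 78 coding genes was -0.37, against -0.01 over all genes tested, and 75 were below 0. In this comparison 37 fell and 0 rose, while 10.3% of all genes tested fell and 12.5% rose. None was higher at an unadjusted p below 0.05 (0 of 78), and edgeR and DESeq2 passed 35 and 44, of which 0 were higher. For these counts too the shares of all genes tested are not given. The 37 were 24 of 49 large and 13 of 29 small subunit genes, with medians of -0.36 and -0.39. Past the 1.5-fold threshold were 6 genes, Mrpl30, Mrpl23, Mrps11, Mrps22, Mrpl55 and Mrps28, while 6.09% of all genes tested fell past it. The kTreg libraries are the same as in the comparison with aTreg cells, so the 2 comparisons are not independent.

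Mrpl30 (chr1:37929558-37939816), a bacterial homologue of the large subunit, had rTreg values of 2147, 1551, 2403 and 1849 in young and 1284, 1048, 1918 and 1258 in old mice. Its kTreg values were 902, 655, 827 and 1110 in young and 869, 871, 734 and 838 in old mice. Young kTreg 4, the highest kTreg value, lay above old rTreg 2, the lowest rTreg value, so the ranges overlapped at their ends. The log2 fold change of Mrpl30 was -0.95 ± 0.13 (SE, adjusted p = 1.5e-05, limma), lower in 8 of 8 pairs of libraries with the same number. With Mrpl23 at -0.78 ± 0.14 (SE, adjusted p = 2.9e-04, limma), it had the smallest p of all coding genes.

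Mrps5 fell by 0.47 against rTreg cells, Mrpl15, a bacterial homologue of the large subunit, by 0.46, and Mrps34, a mitochondrion-specific protein of the small subunit, by 0.58 on the log2 scale. Mrps34 shares 62.6% of its exonic bases with Mapk8ip3 and 47.8% with Nme3, so its reads are uncertain. For Mrps11, a bacterial homologue of the small subunit, all kTreg values, 325 to 463, lay below all rTreg values, 490 to 981, as they did for 1.62% of all genes tested. Mrps11 shares 173 exonic bases with Mrpl46 on the opposite strand. The log2 fold change was -0.63 for Mrps11, -0.60 for Mrps22, of whose exonic bases 19.6% are shared with Gm37637 on the opposite strand, and -0.88 for Mrpl55, and the last passed with adjusted p = 0.041 (limma), a call lost in 10 of 38 alternatives (adjusted p 0.0077 to 0.096), with a value of 76.0 in young kTreg 4 against 539 to 637 in the other kTreg libraries.

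The other 28 genes that fell had log2 fold changes from -0.58 for Mrpl58, a peptidyl-tRNA hydrolase built into the large subunit, to -0.26 for Mrpl45, whose call was lost in 21 of 38 alternatives (adjusted p 0.019 to 0.11). The count of 37 moved with single libraries. It was 24 without young rTreg 1 or without old rTreg 3, 23 without old kTreg 2 and 22 without young rTreg 3, and 0 genes rose in each. Without both young kTreg 4 and old aTreg 2 it was 48, and the count for kTreg against aTreg cells was 21. Single libraries moved that count to between 14, without old aTreg 2, and 30, without old rTreg 3. For kTreg against rTreg cells the count was 21 after the trend on transcript length was removed. By age, 28 genes fell in young mice, where 9.33% of all genes tested did, and Mrpl30 alone in old mice, by 0.70, where 3.84% did. Cytosolic ribosomal protein genes had a median log2 fold change of -0.76, and 71 of 84 fell.

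For aTreg against rTreg cells, the median log2 fold change of the coding genes was -0.05, with 51 of 78 below 0, against 0.06 over all genes tested. With limma 0 of 78 passed, while 3.87% of all genes tested fell and 6.61% rose. At an unadjusted p below 0.05 there were 4, against 21.8% of all genes tested, with Mrpl30 at -0.40 having the smallest p, and DESeq2 on the recovered reads passed 1 and edgeR 0. All aTreg values lay below all rTreg values for 0 of 78 genes and for 0.295% of all genes tested. Between libraries of the same number the median spanned -0.59 in old 3 to 0.63 in old 2, and the medians of both subunits had the same sign in 8 of 8 pairs. In young mice the median was -0.19 and 0 passed with limma, while 3.84% of all genes tested did. At an unadjusted p below 0.05, 3 were lower, against 5.47% of all genes tested, and DESeq2 and edgeR were not run within an age. In old mice it was 0.13, and 3 genes rose, Mrpl1 by 0.52, Mrps5 by 0.51 and Mrps15 by 0.60 on the log2 scale, while 5.73% of all genes tested rose.

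**Figure D5:**
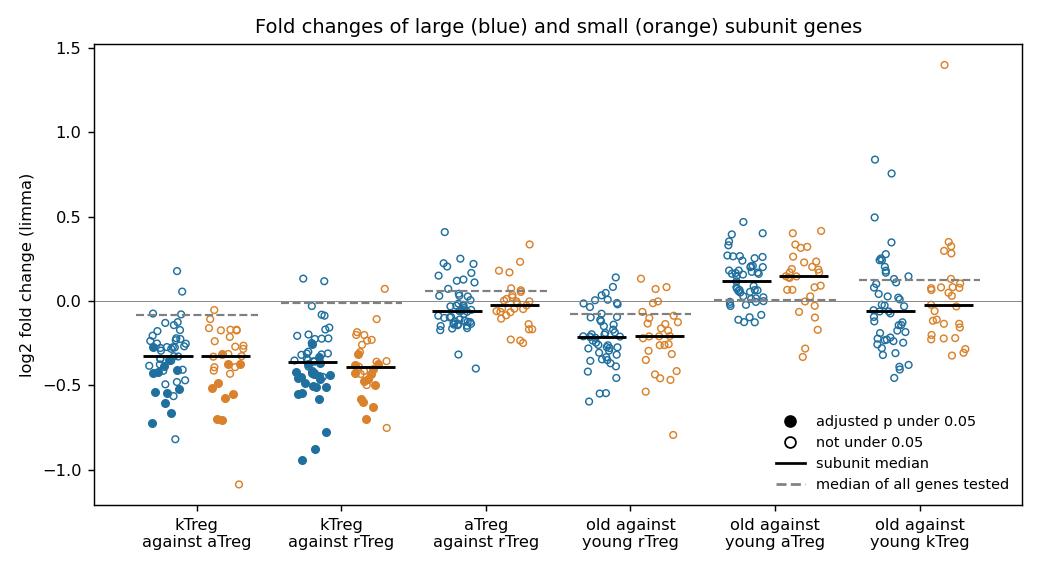
Each point is the log2 fold change of 1 coding gene of the large (blue) or small (orange) subunit in 6 comparisons, filled where limma's adjusted p was below 0.05, with the subunit median as a black bar and the median of all genes tested as a dashed line. Filled points, 21 and 37, appear in the comparisons of kTreg with aTreg and rTreg cells and all lie below 0.

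Age was compared within each subset. In rTreg cells the median log2 fold change of old against young mice was -0.21, against -0.08 over all genes tested, with 69 of 78 below 0 and medians of -0.21 in both subunits. With limma 0 passed, while 6.70% of all genes tested did. At an unadjusted p below 0.05, 12 were lower, against 11.0% of all genes tested. DESeq2 passed 2 and edgeR 0. Mrps15 had rTreg values of 1682, 1325, 1885 and 1400 in young and 1138, 1032, 1157 and 972 in old mice, which did not overlap, and a log2 fold change of -0.54 ± 0.17 (SE, adjusted p = 0.057, limma). All old values lay below all young values for 3 of 78 genes, Mrpl3, Mrpl39 and Mrps15, and for 5.05% of all genes tested. For Mrpl23 the values were 2021, 1357, 2256 and 1412 in young and 1083, 1050, 1588 and 923 in old rTreg cells, and old rTreg 3 overlapped the young mice. Without old rTreg 3 the median was -0.37 and 8 genes passed. The count was 5 without young kTreg 4 and 3 without young rTreg 2. The macrophage and basophil markers and the 20 proliferation genes, of which 15 rose with a median log2 fold change of 1.37, moved with the same comparison. Summed macrophage or monocyte markers were 587 to 8649 in young and 10167 to 26422 in old rTreg libraries. Sums of plasma cell, NK cell and platelet markers were also higher in all old than in all young rTreg libraries. CD8 T cell markers were lower, at 295 to 554 against 566 to 2185. The ranges of B cell, neutrophil and erythroid markers overlapped.

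In aTreg cells the median was 0.14, with 18 of 78 below 0, against 0.01 over all genes tested. With limma 0 passed, while 3.05% of all genes tested did. At an unadjusted p below 0.05, 2 were higher, against 7.56% of all genes tested, namely Mrps5 at 0.42 and Mrpl33 at 0.47. DESeq2 passed 0 and edgeR 0. Without old aTreg 2 the median was 0.02, and after the trend on transcript length was removed it was 0.02 as well. In kTreg cells the median was -0.04, with 44 of 78 below 0, against 0.12 over all genes tested, and 0 passed with limma, while 1.32% of all genes tested did. DESeq2 passed 1 and edgeR 0, and 4 had an unadjusted p below 0.05, against 15.5% of all genes tested. Without young kTreg 4 the median was 0.02. Mrpl38 had the smallest p there, at 0.76 ± 0.21 (SE, adjusted p = 0.078, limma), with young values of 751, 815, 810 and 315 and old values of 1047, 915, 1160 and 1146, which did not overlap. All old kTreg values lay above all young values for 4 of 78 genes and for 6.57% of all genes tested. They lay below all young values for another 4 of 78, Mrpl18, Mrpl34, Mrpl51 and Mrps21. The share of all genes tested that lay below is not given.

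The interaction of age with subset, which tests whether a subset difference differed between old and young mice, passed for 0 of 78 genes in each of the 3 contrasts with limma. Among all genes tested, 0.156% passed for kTreg against aTreg cells, 3.05% for kTreg against rTreg cells and 1.58% for aTreg against rTreg cells. At an unadjusted p below 0.05 there were 3 members against 9.40% of all genes tested in the first, 7 against 17.2% in the second and 10 against 15.8% in the third. Without old rTreg 3, 2 members passed in the second and 2 in the third. DESeq2 passed 0, 0 and 1 and edgeR 0, 0 and 0 in these contrasts. Mrps15 had the smallest p of the 10, with a difference of 0.85 ± 0.24 on the log2 scale (SE, adjusted p = 0.074, limma). The counts of falling genes in young and old mice given above are therefore not shown to differ. The members' median interaction was -0.12, 0.18 and 0.33 on the log2 scale in the 3 contrasts in turn. For the other protein-coding genes compared by transcript length it was 0.07, 0.06 and -0.02. Below 0 were 70.5%, 28.2% and 6.41% of the members, against 43.8%, 44.1% and 51.7% of those genes. These medians were not tested.

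The large minus the small subunit median lay between -0.04, in old against young kTreg cells, and 0.03, in kTreg against rTreg cells, over the 6 comparisons of subset and age. The 5 pseudogenes, Mrps36-ps1, Mrps36-ps2, Mrpl23-ps1, Mrpl27-ps and Mrpl48-ps, passed in none of these comparisons with limma, and 4 of 5 were below 0 for kTreg against aTreg cells. Their reads may belong to the parent genes, and the sharing cannot be resolved from the deposited values.

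Other genes of mitochondrial translation were taken from lists. Of 5 mitoribosomal proteins with other names, 5 were below 0 for kTreg against both other subsets. Chchd1, a small subunit protein, fell by 0.52 on the log2 scale against rTreg cells (adjusted p = 0.043, limma), where 10.3% of all genes tested fell. Of 25 genes of mitoribosome assembly, 3 fell against aTreg cells, while 6.00% of all genes tested did, with a list median of -0.20. They were C1qbp, a matrix protein that binds mitochondrial RNA, by 0.87, Mrm3, a methyltransferase of the large ribosomal RNA, by 0.66, and Eral1, a chaperone of the small ribosomal RNA, by 0.25. Against rTreg cells 4 assembly genes fell, while 10.3% of all genes tested did, among them C1qbp by 0.85, Noa1 by 0.48 and Rbfa by 0.52. Ddx28, an RNA helicase, rose by 0.57, while 12.5% of all genes tested rose.

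Of 16 translation factors, 1 fell in each comparison, against 6.00% of all genes tested for aTreg and 10.3% for rTreg cells, so the counts are near or below the background. These were Tufm, the elongation factor Tu of mitochondria, by 0.27 against aTreg cells and Tsfm, which recharges it, by 0.50 against rTreg cells. Of 17 aminoacyl-tRNA synthetases of mitochondria, 0 passed with limma against aTreg cells, while 6.00% of all genes tested fell and 6.06% rose. At an unadjusted p below 0.05, 3 were lower and 1 higher, for which the share of all genes tested is not given. Fars2 rose by 0.58 against rTreg cells, where 12.5% of all genes tested rose. The 12 mitochondrially encoded genes tested had medians of -0.24 and -0.19 against aTreg and rTreg cells. With limma 0 passed in both, while 6.00% and 10.3% of all genes tested fell. At an unadjusted p below 0.05 there were 2 and 4, for which the share of all genes tested is not given. Of 8 regulators of mitochondrial biogenesis tested, Myc fell by 0.95 and 1.30 against aTreg and rTreg cells. Of all genes tested, 6.00% and 10.3% fell in these comparisons. Gabpb1, a subunit of an ETS factor, rose by 0.37 against rTreg cells, where 12.5% of all genes tested rose. The 20 proliferation genes had a median of 1.16 against aTreg cells, where 14 rose, against 6.06% of all genes tested. Against rTreg cells Pcna fell by 0.48 and Mcm2 by 0.40 on the log2 scale, while 10.3% of all genes tested fell. Between kTreg and rTreg libraries of the same number, their median log2 difference ran from -1.50 in old 4 to 1.24 in young 4. It was below 0 in 5 of 8 pairs.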

How the data were processed

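RNA from sorted Treg subsets was made into libraries with SMART-Seq v4, which does not mark strand, and sequenced as paired-end reads of 150 bases. Per the labels and the methods of the study, the authors used HISAT2 2.2.1, SAMtools 1.13, HTSeq 1.99.2 and DESeq2 1.44.0 with GRCm39. The annotation release, the strand setting and the treatment of multimapping reads are not given in the sources used here. The deposited signal values are read counts divided by the size factor of DESeq2. Whole reads were recovered within a tolerance of 0.001 reads for 100% of values, and 1 read was worth 0.694 to 1.32 units.

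Symbols, positions and lengths were taken from GENCODE M39 for 17353 of 17464 genes. Values were tested as log2(value + 1) with limma 3.58.1 (trend, 6 group means, R 4.3.3), two-sided, after a filter of at least 10 in at least 4 libraries, with Benjamini-Hochberg adjustment over 16630 genes. A gene passed at an adjusted p below 0.05. Fold changes are on the log2(value + 1) scale, which understates the change of low genes. Lists are described by counts and medians beside those of all genes tested. Motifs and sequences were read from GRCm39 with Python 3.11.15, and scripts were tested on simulated data. There, 200 of 16630 genes were changed by a set size. At 0.4 on the log2 scale, 0.5% were recovered for kTreg against aTreg and 0.0% for old against young rTreg cells. At 1.0 on that scale, 48.0% and 28.5% were recovered. The changed genes were drawn at random from all genes tested. In the data more genes passed, 997 lower and 1008 higher for kTreg against aTreg cells, which makes the Benjamini-Hochberg cut less strict. The simulated shares therefore do not give the recovery of the members in the data. A count of 0 passing genes does not by itself show that changes of such sizes are absent. edgeR 4.0.16 and DESeq2 1.42.0 on recovered reads, other pseudocounts, filters and scalings, and leaving out each library were alternatives. Shares of all genes tested under edgeR and DESeq2 are not given, so their counts are set against no background.

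Members, lists and rules were chosen with earlier results of these data known. Named genes were, for each comparison, up to 5 members per direction with the smallest passing p, Mrps5, Mrpl23, Mrpl38 and Mrps28, members past 1.5-fold, the 5 highest and 5 lowest per kilobase, and up to 3 passing genes of each list. Other genes were named after their values were seen, to account for a count or an overlap. The sample number in the labels was also fitted as a block. For each gene, the p-value sets a difference of group means against the spread between samples within groups. That spread was estimated over all 6 groups together. A library left out of 1 group can therefore move the counts of comparisons that do not use it.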

Additional observations from a re-analysis of the deposited data

Results flagged for a closer look

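In 14 of 144 groups of 4 libraries, the highest or the lowest library stood apart from the other 3 by Dixon's criterion, which chance meets in about 1 in 20 groups. Most were in old rTreg 3, young kTreg 4 and old aTreg 2, and no explanation was tested.

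Old rTreg 3 was highest of its group in Mrps28, at a normalized count of 1016 against 385 to 451, in Mrps11 at 981 against 490 to 547, and in Mrps25 at 877 against 486 to 549. Its mean log2 deviation was 0.48 for the large and 0.44 for the small subunit, against at most -0.07 and -0.10 in the other old rTreg libraries.

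Young kTreg 4 was lowest of its group in Mrpl38, at 315 against 751 to 815, and in Mrpl55 at 76.0 against 539 to 589, and highest in Mrpl4 at 3284 against 2300 to 2346. In old aTreg 2, Mrpl23 was at 1925 against 1162 to 1290, and Mrpl15 at 2252 against 1622 to 1715.

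Old kTreg 2 had a mean log2 deviation of -0.42 for the large subunit, against -0.20 to -0.17. Single values stood apart for Mrpl38 in young rTreg 3, at 1503 against 1086 to 1144, for Mrps31 in young aTreg 3, at 518 against 592 to 604, and for Mrpl53 in old kTreg 3, at 126 against 68.3 to 76.6.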

How the results depend on the processing

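Of 354 values under alternatives that leave out no single library, 321 kept their direction and side of the threshold, or moved little. The cause of the other changes was not tested. The labels do not state that a sample number marks 1 mouse. Same-numbered libraries had a mean correlation of deviations of 0.12, 0.15 and 0.091 for aTreg with kTreg, rTreg with aTreg and rTreg with kTreg cells, against -0.04, -0.03 and -0.04 for other numbers, and 4, 4 and 3 of 8 pairs were over 0.1. With the sample number as a block (replicate block), 22 coding genes passed in kTreg against aTreg and 35 in kTreg against rTreg cells, and among named genes Mrps28 was lost in the first and Mrpl45 in the second. For kTreg against aTreg cells the count was 13 with the length trend removed, 49 at an unadjusted p and 5 with the fold threshold. The share of all genes tested at an unadjusted p is not given for this comparison. For kTreg against rTreg cells it was 21 with the length trend removed, 21 with the replicate block as well, and 6 with the fold threshold. For aTreg against rTreg cells it was 1 without both young kTreg 4 and old aTreg 2, 1 with DESeq2 and 4 at an unadjusted p.

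For old against young rTreg cells it was 2 with the length trend removed, 2 with the replicate block as well, 1 with a filter at 50, 5 without both libraries, 2 centred on the median gene, 1 with equal totals, 2 with DESeq2 and 12 at an unadjusted p. Centring moved the median of all genes there from -0.08 to -0.20, and that of the coding genes to -0.34. For aTreg cells the large minus small difference reversed to 0.0076 with the length trend removed, with or without the replicate block, and was -0.058 with subunits by position, and 2 genes had an unadjusted p below 0.05. For kTreg cells the median was -0.20 with the length trend removed, with or without the replicate block, the subunit difference was -0.10 without both libraries, and 1 gene passed with DESeq2 and 4 at an unadjusted p. The interactions gave 3, 7 and 10 at an unadjusted p for kTreg against aTreg, kTreg against rTreg and aTreg against rTreg cells. For kTreg against rTreg cells 1 passed with the length trend removed, 1 with the replicate block as well and 1 without both libraries, and for aTreg against rTreg cells 1 with DESeq2. Removal of the length trend and the fit without both libraries were chosen after seeing the data.

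Leaving out 1 library gave 14 (without old aTreg 2) to 30 (without old rTreg 3) passing genes, medians of -0.37 to -0.27 and subunit differences of -0.03 to 0.04 for kTreg against aTreg cells. For kTreg against rTreg cells the ranges were 22 to 46, -0.41 to -0.30 and -0.02 to 0.07, and for aTreg against rTreg cells 0 to 1, -0.12 to 0.03 and -0.04 to -0.0010. With age they were 0 to 8, -0.37 to -0.13 and -0.04 to 0.03 in rTreg, 0 to 0, 0.02 to 0.22 and -0.058 to 0.0052 in aTreg, and 0 to 1, -0.10 to 0.02 and -0.10 to -0.0084 in kTreg cells. The interactions gave 0 to 0, 0 to 2 and 0 to 2, with 2 reached without old rTreg 3. Of 132 pairs of a named gene and a comparison 25 passed, 16 of them in every alternative and 0 with a change of sign. Of the others, 14 passed in some alternative, and 41 pairs, none of which passed, had values of both signs.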
